A study of Mus musculus with 2 samples.

Results

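The proteasome subunit genes were taken as every symbol of the deposited gene panel that starts with Psma, Psmb, Psmc, Psmd or Psme, which gave 43 of 19465 genes. By role they are 7 alpha ring subunits, 6 constitutive beta ring subunits, the 3 immunoproteasome subunits, 2 core subunits of testis and thymus, 6 ATPases, 3 further base subunits, 7 lid subunits, 3 chaperones of base assembly, 5 activator caps and Psmc3ip. Psmc3ip is a recombination cofactor that shares only the prefix. Psmb1 and Psmd11 were not analysed here. Of the 43 genes, 38 had at least 100 unique molecular identifiers (UMIs, 1 per captured molecule) over the tissue. The others were Psmd6 with 53 UMIs, Psmb9 with 57, Psmc3ip with 73, Psma8 with 9 and Psmb11 with 2. Psma8 is the germ cell form of Psma7, and Psmb11 is the thymic form of Psmb5.

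The study placed fresh frozen brain sections of male mice of 6 months on Visium CytAssist slides, on which probe pairs are ligated on their transcripts and read with the barcode of a spot. It set G2-3 mice, which carry A53T alpha-synuclein, against wild-type mice, with 1 sample of each. The labels used here do not name the promoter of the transgene. The count matrices of both samples were the same file, so that 1 library was measured, no genotype could be assigned to it, and no genotype comparison was made. All values below compare regions of 1 section. There is no replicate, no test could be run, and the 95% intervals cover counting error only.

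The 26S proteasome degrades proteins that carry ubiquitin chains. Its core particle stacks alpha rings around beta rings, and 3 of the beta subunits cut peptide bonds. A regulatory particle of an ATPase base and a lid binds the ubiquitin chain, removes it and unfolds the protein. Interferon induces Psmb8, Psmb9 and Psmb10, which take the places of Psmb5, Psmb6 and Psmb7 and change the peptides offered to class I molecules. It also induces Psme1 and Psme2, which together form an activator cap of the core particle. In the brain, immunoproteasome subunits are known from microglia, the resident macrophages.

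The 2485 tissue spots with at least 500 UMIs held 20997947 UMIs, with a median of 6686 per spot (1183 to 80174). They fell into 16 regions, each called here by its leading genes; the clustering did not use the proteasome genes, the pathway lists or those cell type genes that are not region markers as well. By lists of marker genes, Clec18a/Igfn1 was upper cortex, Myl4/Col5a1 and Ccn2/Cplx3 were deep cortex, C1ql2/Pcdh20 was dentate gyrus, Klk6/Gfap was white matter, Mgp/Igf2 was meninges, Gpr161/Cpne7 was hippocampal pyramidal layer and Irx2/Cdh23 was midbrain and hindbrain. The 3 cortical regions were pooled, with 480 spots. The Tph2/Slc18a2 region (282 spots) stands for the ventral midbrain because it held the most UMIs of the dopamine transporter Slc6a3 (241). That choice went by count and not by share: it had 241 on 1318299 UMIs, and the smaller Ttr/Slc6a3 region 42 on 227290. The Tph2/Slc18a2 region took no name from its markers. In it 13 white matter markers and 7 nigral ones were raised, while its top marker, Tph2, was listed under neither. Tph2 was listed for hindbrain and midbrain, and Slc6a4 was also among the leading genes. Ventral midbrain below means this whole mixed region and not the nigra alone. A spot can hold several cells, and a lower count cannot tell fewer cells of a type from less RNA per cell.

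The subunits of the 26S particle, called constitutive here, were present throughout the section in similar amounts. Summed over its members, the constitutive level was lowest in the Mgp/Igf2 meninges, at 2433 counts per 1000000 UMIs of the region (CPM; 2307 to 2563), and highest in the Irx2/Cdh23 midbrain and hindbrain, at 3629 (3548 to 3712). The ventral midbrain followed at 3555 (3454 to 3659) and the Six3/Slc18a3 region at 3543 (3453 to 3634), and these 3 did not differ beyond their intervals. The Ddn/Thrsp region (2485), the upper cortex (2574), the Cplx3/Thbs4 region (2617), the Penk/Adam33 region (2654), the white matter (2674) and the Myl4/Col5a1 deep cortex (2706) formed the low end. The dentate gyrus (2929), the pyramidal layer (3040), the Ccn2/Cplx3 deep cortex (3095), the Tshz2/Pirt region (3136), the Cartpt/Baiap3 region (3194) and the Ttr/Slc6a3 region (3304) lay between.

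**Figure D1:**
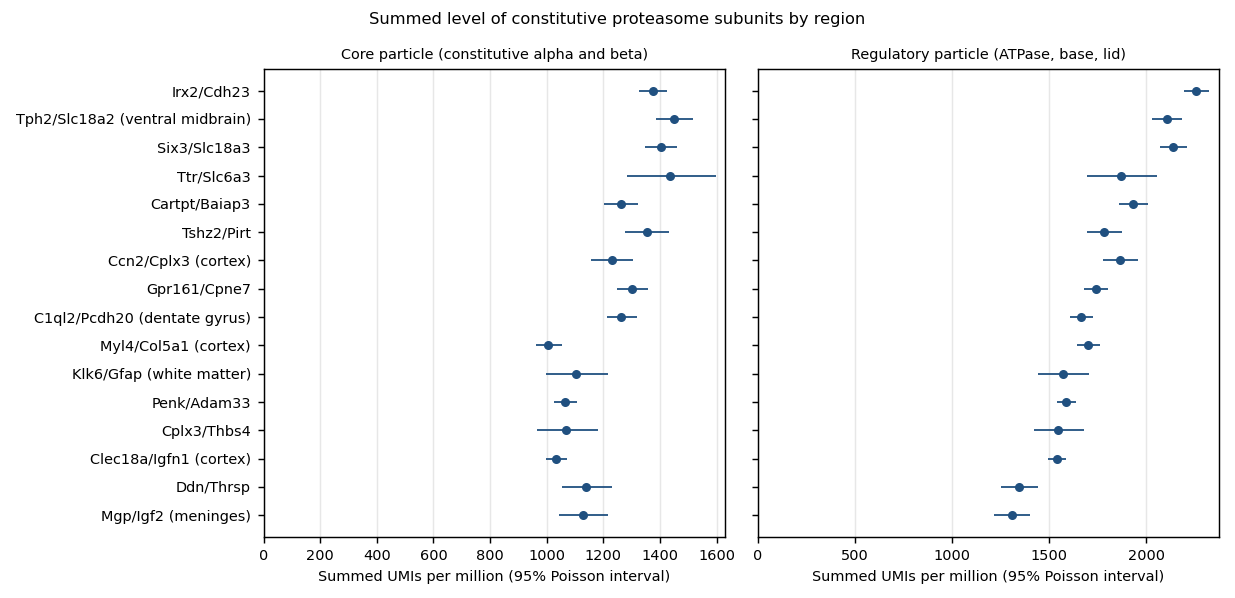
Summed CPM (x axis, with 95% Poisson intervals) of the constitutive core subunits (left) and of the regulatory particle (right) in the 16 regions (y axis), ordered by the sum of both. The Irx2/Cdh23, Tph2/Slc18a2 and Six3/Slc18a3 regions stand highest on the right, and the Mgp/Igf2 and Ddn/Thrsp regions lowest.

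Single members did not all have the extremes of the sum. Of the 28 constitutive members with at least 500 UMIs, 8 were highest in Ttr/Slc6a3 and 5 in Irx2/Cdh23, and 7 were lowest in Cplx3/Thbs4 and 5 in Mgp/Igf2. Of the same 28, 24 were higher in the Six3/Slc18a3 region than in all other spots, 23 in the ventral midbrain and 22 in the Irx2/Cdh23 region. In Cartpt/Baiap3 12 of the 28 were. In the Six3/Slc18a3, ventral midbrain and Irx2/Cdh23 regions the median log2 ratios were 0.18, 0.23 and 0.21, while the median over all 6878 genes with 500 UMIs was 0.00, -0.01 and -0.06. In the upper cortex 3 of the 28 were higher than elsewhere, with a median of -0.27 against -0.04 over all genes. In the Mgp/Igf2, Klk6/Gfap and Ddn/Thrsp regions the median of all genes was itself low (-0.31, -0.28 and -0.22), and that of the members was -0.26, -0.14 and -0.19. The members had a lower median SD of log2 CPM (with 10 added) over the 16 regions than all genes had, 0.28 against 0.38. It ran from 0.15 for the lid subunit Psmd13 to 0.42 for the ATPase Psmc5. This comparison is uneven. The genes that defined the regions are among all genes, while the members were kept out of the clustering, and UMI levels were not matched. How much of the difference follows from that was not tested.

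Psmb4, a beta ring subunit without a cutting site and the member with the most UMIs (9500), had the smallest ratio between regions. It ran from 360 CPM in the white matter to 535 in the Cartpt/Baiap3 and Six3/Slc18a3 regions, a ratio of 1.49. Psmc5, an ATPase of the base, ran from 157 in the meninges to 493 in the Irx2/Cdh23 region, a ratio of 3.13. It was above 480 in the Irx2/Cdh23, Six3/Slc18a3 and ventral midbrain regions and at most 396 in every other region. Psmd4, a receptor for ubiquitin chains, was also highest in Irx2/Cdh23, at 426 (398 to 455), and was at most 351 elsewhere. The median ratio of highest to lowest region over the 28 members was 2.39. It was largest for the lid subunit Psmd8, with 57.2 in Ttr/Slc6a3 on 13 UMIs and 8.18 in the white matter on 3. Psmd14, the deubiquitinase of the lid, ran from 40.5 in Penk/Adam33 to 69.8 in the dentate gyrus.

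The summed core and regulatory UMIs did not keep one proportion. The ratio of their summed UMIs was 0.86 in the meninges and 0.85 in the Ddn/Thrsp region, but 0.59 in the Myl4/Col5a1 deep cortex and 0.61 in the Irx2/Cdh23 region. Against the rest of the tissue the log2 odds ratio was 0.35 (0.19 to 0.50) in the meninges and 0.32 (0.17 to 0.48) in Ddn/Thrsp. It was -0.22 (-0.31 to -0.13) in Myl4/Col5a1 and -0.18 (-0.25 to -0.11) in Irx2/Cdh23. Members with many UMIs weigh most in these sums. In Irx2/Cdh23, Psmc5 had 1033 and Psmd4 893 of the 4728 regulatory UMIs, and in the meninges they had 91 and 119 of 756. The ratios were not computed without these members, so that they need not hold for the subunits at large. The meninges thus had fewer regulatory UMIs per core UMI than the rest. Panel probes differ in capture, so that these ratios compare regions and not the amounts of the subunits.

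**Figure D2:**
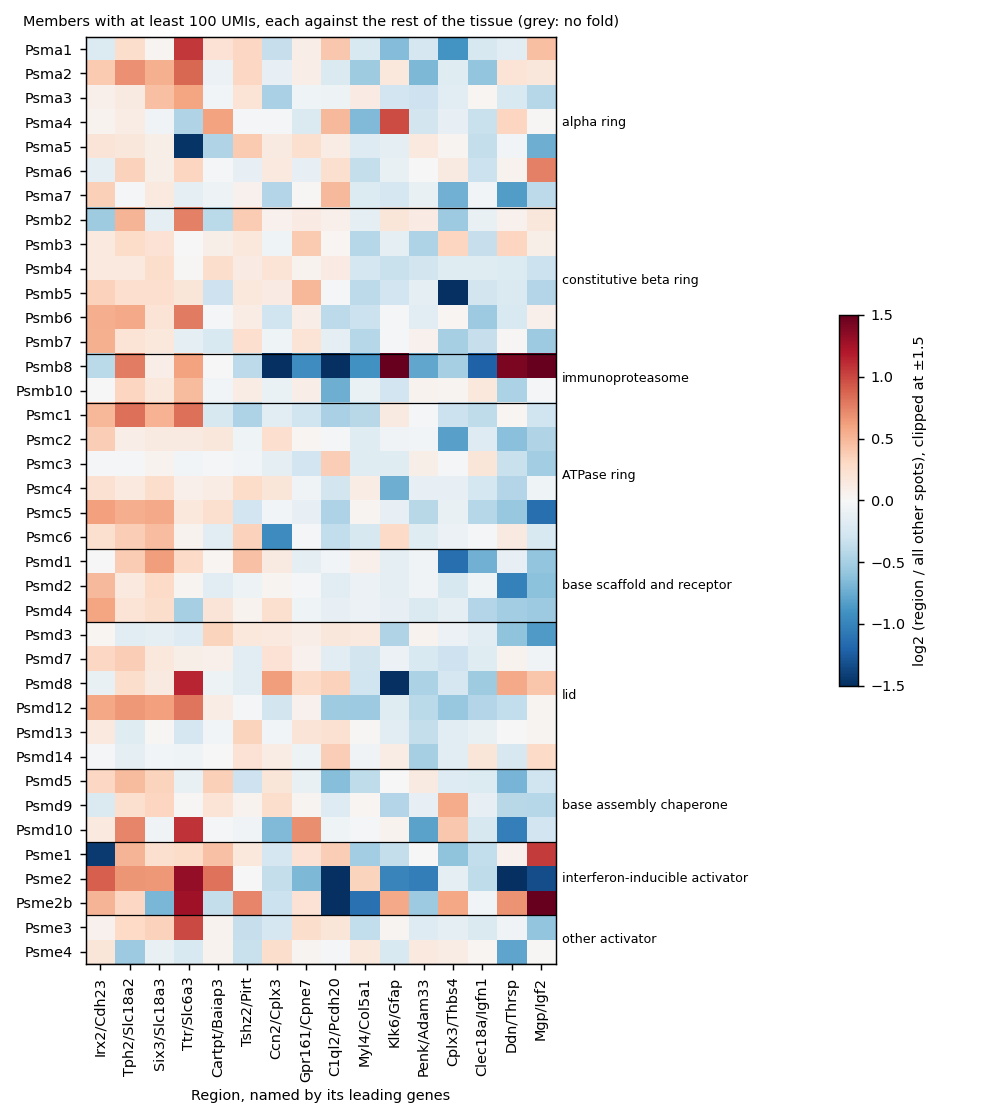
Log2 ratio (colour, clipped at 1.5 either way) of each member with at least 100 UMIs (rows, grouped by role) in each region (columns) to all other spots. In the 4 leftmost regions 22, 23, 24 and 18 of 28 constitutive members lie above 0, and Psme2 is higher in these 4 as well. Psmb8 and Psme1 are highest in Mgp/Igf2, and Psme1 is lowest in Irx2/Cdh23.

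Counted gene by gene, few members stood out in any region, and the same count over all 11003 genes with 100 UMIs is given beside each. A member counted here was at least 1.5-fold off all other spots with an interval beyond 0. In the ventral midbrain 6 of 38 were higher (15.8%, against 11.4% of all genes) and none lower (against 12.5%): Psmd12, Psmc1, Psma2, Psme2, Psmb8 and the assembly chaperone Psmd10. In the Ttr/Slc6a3 region, on 227290 UMIs, 8 were higher (21.1%, against 10.3%) and Psma5 was lower (against 8.37%). In Irx2/Cdh23, Psmd4, Psmc5 and Psme2 were higher (against 10.2%) and Psme1 lower (against 18.8%). In Six3/Slc18a3, Psmd1, Psmd12 and Psme2 were higher (against 10.1%) and none lower (against 11.5%).

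At the other end, 7 members were lower in Ddn/Thrsp (18.4%, against 17.4%) and Psmb8 was higher (against 14.0%). In the meninges 4 were higher and 6 lower (against 16.2% and 22.2%), in the white matter 2 and 2 (against 13.2% and 19.0%), and in the dentate gyrus none and 5 (against 14.9% and 27.5%). Psmb8 was among the lower ones in the dentate gyrus, the upper cortex, Myl4/Col5a1, Ccn2/Cplx3, Gpr161/Cpne7 and Penk/Adam33. The other spots that these were set against include the meninges, which held 23.3% of the Psmb8 UMIs. In the upper cortex 0 members were higher and 3 lower (against 6.65% and 13.5%). In Myl4/Col5a1, 0 were higher and 2 lower (against 4.52% and 12.7%), and in Ccn2/Cplx3, 1 was higher and 2 lower (against 5.64% and 14.9%). In Gpr161/Cpne7, 1 was higher and 2 lower (against 4.66% and 13.7%). In Penk/Adam33, 0 were higher and 4 lower (against 5.53% and 16.0%), and in Cplx3/Thbs4, 0 and 3 (against 5.69% and 6.98%). In Cartpt/Baiap3, Psma4 and Psme2 were higher (against 7.72%) and none lower (against 8.74%), and in Tshz2/Pirt no member passed either way (against 4.38% and 6.74%). In most regions the share of members was near or below that of all genes. All genes again include those that defined the regions.

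Across the 16 regions, members varied together to a limited degree. The median Pearson correlation between pairs of the 28 members was 0.26 over 378 pairs, against 0.04 between all genes with 500 UMIs. For the 11 members with at least 2000 UMIs it was 0.52, against 0.12. These values are descriptive, since regions share 1 library and differ in depth. The lid subunit Psmd12 followed the mean of the other members most closely (r = 0.82), then Psmb4 (0.78) and the base scaffold Psmd1 (0.76). Psme4 (-0.19), a cap that opens the core particle without ATPases, and the alpha subunit Psma4 (-0.08) did not follow it.

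The ventral midbrain was set against the cortex because the nigra and the cortex are named in the study's design. Constitutive members were higher in the ventral midbrain, with a median log2 ratio of 0.45 over 28 members; 24 were higher and 4 lower, and the median over all 8220 genes was 0.02. At least 1.5-fold higher were 6 of the 28, while 18.5% of all genes reached that fold. The sum of the alpha ring was 459 CPM against 322 in the cortex, that of the beta ring 991 against 734, that of the ATPases 941 against 697 and that of the lid 614 against 510. The log2 ratio of the constitutive sum was 0.40 (0.35 to 0.44).

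The alpha subunit Psma2 had 137 CPM in the ventral midbrain and 64.7 in the cortex, a log2 ratio of 1.08 (0.81 to 1.34). The ATPase Psmc1 had 46.3 against 22.0 (1.07, 0.60 to 1.53). Psmd12, which helps hold the lid together, had 172 against 86.1 (1.00, 0.76 to 1.23). These 3 stood near or past 2-fold, with intervals that overlap each other. Psmb6, the caspase-like cutting subunit, had 156 against 82.9 (0.91, 0.67 to 1.16). The other constitutive cutting subunits, Psmb5 (0.44, 0.04 to 0.83) and Psmb7 (0.49, 0.17 to 0.80), had lower ratios, with intervals that overlap that of Psmb6. Psmc5 had a log2 ratio of 0.67 (0.54 to 0.81), Psmd1 of 0.59 (0.14 to 1.02) and the assembly chaperone Psmd5 of 0.61 (0.32 to 0.90). Psmd14 (-0.21), Psmd3 (-0.16), Psmd13 (-0.13) and Psmc3 (-0.02) were the 4 constitutive members with a ratio below 0, and their intervals included 0.

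The activator caps differed in direction. Psme1 had 116 CPM in the ventral midbrain against 65.1 in the cortex (log2 0.84, 0.55 to 1.11), Psme2 had 32.6 against 20.2 (0.69, 0.15 to 1.21), and the nuclear cap Psme3 had 103 against 71.6 (0.53, 0.23 to 0.81). Psme4 had 64.5 against 99.4, and was the one member at least 1.5-fold lower (-0.62, -0.97 to -0.29); 18.3% of all genes were that much lower. Psmb10 had 85.7 against 71.1 (0.27, -0.04 to 0.58), so that its difference was within the counting error. Psmb8 had 19.0 in the ventral midbrain, on 25 UMIs, and 4.91 in the cortex, on 27. Psmb9 had 1 UMI there.

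Oligodendrocyte genes moved with this comparison: all 10 of that list were higher in the ventral midbrain than in the rest, at 22032 CPM in sum against 6261. In the white matter the same list summed to 49380, and the constitutive level was near that of the cortex as a whole. The part of these genes in the result was not tested. The side of the array also moved with this comparison. In the lower array columns, which held 52 of the 480 cortical spots, the constitutive sum of the cortex was 3154 (3027 to 3285) against 2633 (2587 to 2680) in the higher columns, and the ventral midbrain over cortex log2 ratio was 0.18 (0.10 to 0.25). Those 52 spots were all of the Ccn2/Cplx3 layer, whose 16 spots in the higher columns had 2812 (2553 to 3089), an interval that overlaps that of the lower columns. In the higher columns the upper cortex had 2574 and Myl4/Col5a1 2706. The part of the side in the result was not tested further. The other regions with at least 10 spots on both sides were Cartpt/Baiap3, Ddn/Thrsp, Gpr161/Cpne7, Penk/Adam33, Six3/Slc18a3 and Mgp/Igf2. All but Mgp/Igf2 were also higher in the lower columns, by smaller amounts, with intervals that overlap between the sides in all 5. Such overlap does not show that the sides are equal, and ratios between the sides of a region were not computed. In 4 classes of tissue spots by rising UMIs, the constitutive level was 2975, 3147, 3008 and 2950 CPM. These classes mix regions. Within the cortex the 4 classes had 2655, 2578, 2667 and 2817, and within the ventral midbrain 3321, 3643, 3469 and 3651. The part of depth in the result was not tested.

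**Figure D3:**
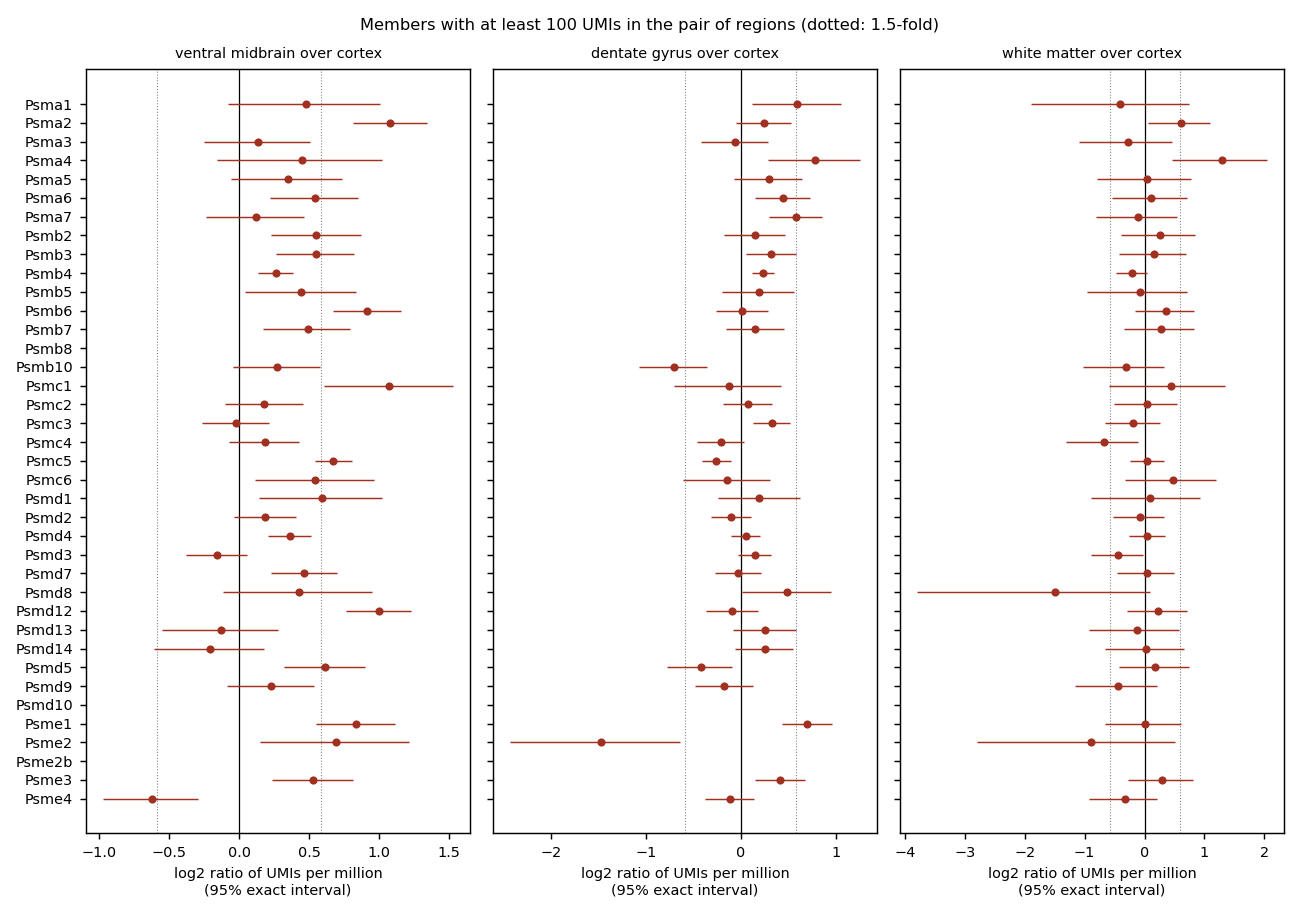
Log2 ratio (x axis, 95% exact intervals) of each member (y axis) between ventral midbrain, dentate gyrus or white matter and cortex, for members with at least 100 UMIs in the pair. In the left panel 30 of 35 points lie right of 0; the middle panel has Psme2 far left; the right panel has the widest intervals.

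The dentate gyrus was compared with the cortex because the design text names the hippocampus. The core subunits summed to 1264 CPM there and 1056 in the cortex (log2 0.26, 0.19 to 0.33), and the regulatory subunits to 1665 and 1647 (0.02, -0.04 to 0.08). The median log2 ratio of 28 constitutive members was 0.17, with 20 higher and 8 lower, against 0.00 over 8263 genes. The alpha ring summed to 418 CPM against 322 (log2 0.38), the beta ring to 846 against 734 (0.21), the lid to 554 against 510 (0.12, 0.01 to 0.22) and the ATPases to 667 against 697 (-0.06). Of single regulatory members, the ATPase Psmc3 had 0.33 (0.13 to 0.52) and the lid subunit Psmd8 0.49 (0.02 to 0.95). The ATPase Psmc5 was lower, with 252 CPM against 301 (-0.26, -0.41 to -0.11). Psma4 (32.4 against 18.9; 0.78, 0.29 to 1.25) and Psma1 (33.0 against 21.8; 0.60, 0.12 to 1.06), both of the alpha ring, were at least 1.5-fold higher; 15.3% of all genes were. Psmb5 (0.19), Psmb6 (0.02) and Psmb7 (0.15) had intervals that included 0, as did Psme4 (-0.12), and Psme3 was 0.42 (0.15 to 0.68). No constitutive member was at least 1.5-fold lower, while 21.5% of all genes were.

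In the lower array columns, where all 56 dentate gyrus spots lie, the median log2 ratio over cortex was -0.14 and that of the constitutive sum -0.11 (-0.18 to -0.04). The excess over cortex therefore holds against the cortex as a whole and not against the Ccn2/Cplx3 spots of the same side. The dentate gyrus spots were also the deepest, with a median of 30050.5 UMIs. Per spot they held 93.6 constitutive UMIs, while the cortical regions held 27.8 to 40.4 and the ventral midbrain 16.6. The Ddn/Thrsp region, which also had 3 dentate gyrus markers, was shallow, with a median of 3336 UMIs. Against the dentate gyrus, of the 28 members with at least 100 UMIs in the pair, 6 were at least 1.5-fold lower in it: Psma7 (log2 -1.26, -1.97 to -0.61), Psmd2 (-0.84), Psme4 (-0.76), Psmd3 (-0.74), Psmc3 (-0.66) and Psmc2 (-0.60). None of the 28 was that much higher, on a background of 37.8% lower and 17.6% higher. Psmb8, with 17 and 7 UMIs, was not among them and had 29.7 against 3.91 CPM (2.92, 1.58 to 4.44). Psma7 is an alpha subunit, Psmd2 a base scaffold, Psmd3 a lid subunit, and Psmc3 and Psmc2 are ATPases. Other lists moved with this comparison: astrocyte genes summed to 12705 CPM in Ddn/Thrsp and 1721 in the dentate gyrus, oligodendrocyte genes to 6827 and 528, and blood genes to 8592 and 782. In the dentate gyrus GABAergic genes summed to 118 against 1500.3 in the rest of the tissue, and oligodendrocyte genes to 528 against 7877. The part of these in either comparison was not tested.

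The white matter was near the level of the cortex as a whole in constitutive subunits. The median log2 ratio of the 28 members was 0.04, with 17 higher and 11 lower, while all 7715 genes had a median of -0.26. The constitutive sum was 2674 CPM (2509 to 2846) in the white matter and 2703 in the cortex. Psma4 (46.3 against 18.9; 1.29, 0.46 to 2.04) and Psma2 (98.1 against 64.7; 0.60, 0.06 to 1.10) were at least 1.5-fold higher, and 17.5% of all genes were. Psmc4, an ATPase, was lower (70.9 against 114; -0.68, -1.31 to -0.12), as 36.0% of all genes were by that fold. Psmd8 (3 UMIs) and Psme2 (4 UMIs) had ratios of -1.497 and -0.89 with intervals that included 0. Psmb5 (-0.07), Psmb6 (0.36), Psmb7 (0.27), Psmb10 (-0.31), Psme1 (0.01), Psme3 (0.28) and Psme4 (-0.33) were all within counting error. Psmb8 was under the minimum of 100 UMIs, with 12 in the white matter and 27 in the cortex. It had 32.7 against 4.91 CPM (2.74, 1.62 to 3.77). Psmb9 had 1 and 14 UMIs. In the lower array columns 11 members could be compared, with a median of -0.32, and the constitutive sum had a log2 ratio of -0.24 (-0.35 to -0.13), below the Ccn2/Cplx3 spots of that side.

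The interferon-inducible members showed the steepest regional pattern, and it was not shared by all of them. Psmb8, which takes the place of the chymotrypsin-like Psmb5, had 98.5 CPM (74.6 to 128) in the Mgp/Igf2 meninges, 32.7 (16.9 to 57.1) in the white matter and 29.7 (17.3 to 47.5) in Ddn/Thrsp. It was 19.0 in the ventral midbrain, between 5.43 and 17.6 in 10 further regions and 3.91 (1.57 to 8.06) in the dentate gyrus. In Ccn2/Cplx3 it had 0 of 888570 UMIs, where the floor of 3 counts used here stands for 3.38 CPM. The meninges thus stood apart from every other region beyond the intervals, and the next 3 did not differ from each other. With 2.76% of all UMIs, the meningeal spots held 23.3% of those of Psmb8: 57 of 245, in 24 of 100 spots, with at most 5 in 1 spot.

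**Figure D4:**
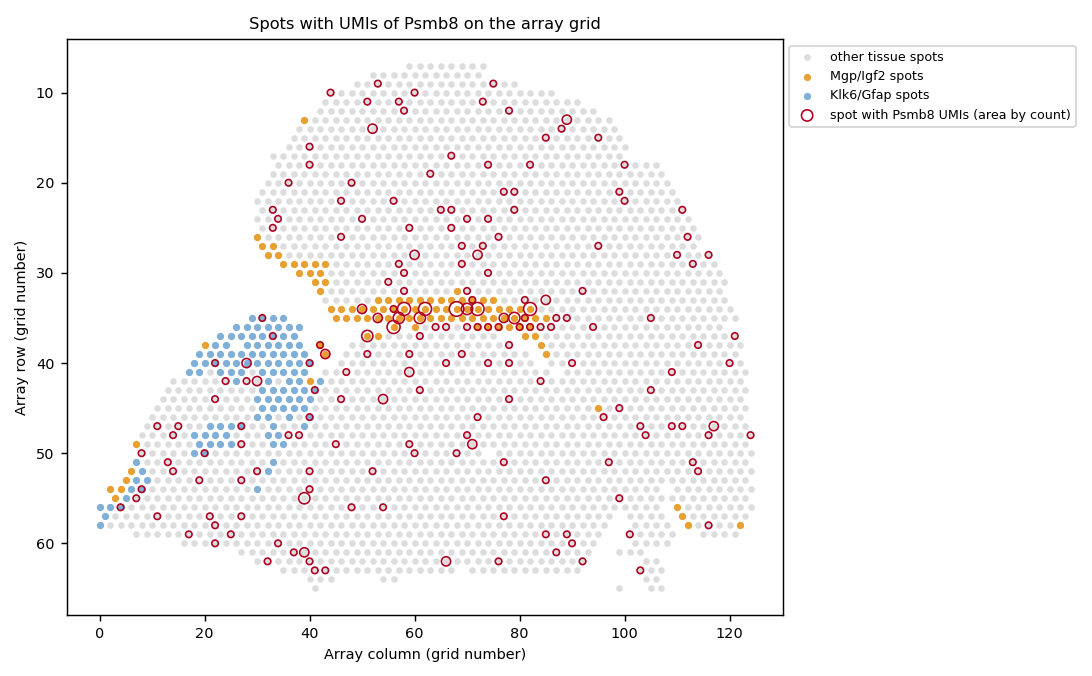
Tissue spots by array column (x axis) and row (y axis), with the Mgp/Igf2 spots in orange, the Klk6/Gfap spots in blue and the spots with Psmb8 UMIs ringed in red, with ring area by count. Rings cluster along part of the band of Mgp/Igf2 spots, where 24 of 100 spots have a UMI, and lie scattered over the rest of the section.

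Psmb9, which takes the place of the caspase-like Psmb6, had 57 UMIs in all. Of these 12 lay in the meninges, at 20.7 CPM (10.7 to 36.2), and it had 5.24 or less in every other region. Psmb10, which takes the place of the trypsin-like Psmb7, did not share this. It had 69.1 (49.4 to 94.1) in the meninges and ran from 43.6 (34.5 to 54.4) in the dentate gyrus to 96.8 (60.7 to 147) in Ttr/Slc6a3. The order from 57.2 in the white matter upward did not separate beyond the intervals. The dentate gyrus was below the rest of the tissue, with a log2 ratio of -0.73 (-1.08 to -0.40).

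Set against the subunits that they replace, the same held. In the meninges the Psmb8 to Psmb5 ratio of UMIs was 2.85 against 0.20 elsewhere, a log2 odds ratio of 3.86 (3.06 to 4.70). Psmb9 to Psmb6 gave 3.16 (2.03 to 4.18), and Psmb10 to Psmb7 gave 0.53 (-0.19 to 1.27). Psmb10 weighs most in a sum of the 3, with 1466 UMIs over the tissue against 245 of Psmb8 and 57 of Psmb9. The 3 together gave 1.42 (1.02 to 1.82) in the meninges, -0.63 (-0.998 to -0.28) in the dentate gyrus and -0.59 (-0.86 to -0.33) in Irx2/Cdh23. They gave 0.22 (-0.41 to 0.82) in the white matter and -0.05 (-0.35 to 0.25) in the ventral midbrain. The white matter value says little of Psmb8 alone, which had 12 UMIs there against 14 of Psmb5. With spots of 3000 to 15000 UMIs, which kept 13 dentate gyrus spots, the dentate gyrus value was 0.064. Psmb5, Psmb6 and Psmb7 themselves had log2 ratios to cortex of -0.22, 0.46 (0.07 to 0.84) and -0.24 in the meninges.

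The meninges also differed from the cortex in structural subunits. Their constitutive median was -0.02, with 13 of 28 higher and 15 lower, against -0.25 over 7919 genes. Psma6 was 117 CPM against 60.5 (log2 0.96, 0.56 to 1.34), Psma2 was 0.61 (0.18 to 1.01) and Psma1 0.66 (-0.10 to 1.36), the 3 constitutive members at least 1.5-fold higher; 18.3% of all genes were. Psmc5 was 157 against 301 (-0.94, -1.26 to -0.63) and the lid subunit Psmd3 102 against 182 (-0.84, -1.24 to -0.46); 34.8% of all genes were that much lower. The alpha ring was higher in sum (396 against 322) and the ATPase ring lower (491 against 697). Psme3 (-0.33) and Psme4 (-0.09) had intervals that included 0.

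Marker genes of other cells were higher in the meningeal spots. All 7 meningeal fibroblast genes were higher there, at 4406 CPM in sum against 128 in the rest, and all 16 microglia and macrophage genes, at 1607 against 489. The 4 blood genes summed to 45502 against 2137. Pericyte and smooth muscle genes summed to 1792 against 81.5, with 6 of 7 higher, endothelial genes to 392 against 112, with 7 of 7 higher, and astrocyte genes to 8386 against 3743, with 8 of 8 higher. Of the 9 lymphocyte genes 6 were higher, at 17.3 against 3.38 on 10 UMIs, with Cd4, Ms4a1 and Nkg7 at 0. The microglia and macrophage list was highest in Ttr/Slc6a3 (1874, with 16 of 16 higher than in the rest), had 1583 in Ddn/Thrsp and summed to 1248 in the white matter and 232 in the dentate gyrus. The part of any of these cell types in the level of Psmb8 was not tested.

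The list of antigen presentation and interferon genes was counted in the same comparisons. Of its 12 genes 6 could be compared in meninges and cortex. All 6 were at least 2-fold higher, with a median log2 ratio of 2.63, while 11.2% of all genes were that much higher. Bst2, Tap2 and H2-K1 had 49, 72 and 86 UMIs in the cortex, and reached the minimum of 100 only with their meningeal UMIs. The count and the median therefore lean to genes that are high in the meninges. Tapbp, H2-D1 and B2m passed on their cortical UMIs alone (295, 182 and 128), at 2.04, 2.33 and 2.94. Bst2, an antiviral membrane protein, had 4.19, B2m, the class I light chain, 2.94, H2-K1, a class I heavy chain, 2.82, and the peptide transporter subunit Tap2 2.44. In the white matter all 4 that could be compared were higher, with a median of 1.74, led by H2-K1 (2.34), B2m (1.76) and H2-D1 (1.72). At least 2-fold higher were 3 of the 4, as 10.1% of all genes were. H2-K1, with 86 UMIs in the cortex, reached the minimum only with its 29 of the white matter. In the ventral midbrain 5 of 5 were higher with intervals beyond 0, with H2-K1 at 1.28 and H2-D1 at 1.08 past 2-fold, as 7.88% of all genes were. In the dentate gyrus all 3 were lower, with Tapbp, which loads class I molecules, at -1.54 (-2.11 to -1.02) and H2-D1 at -1.43 (-2.14 to -0.79) past 2-fold, as 13.3% of all genes were. Psmb8 there had 3.91 CPM against 4.91 in the cortex (-0.33, -1.77 to 0.91), so that its difference was within the counting error.

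Psme1 and Psme2, whose products assemble into the same cap, differed in their regional order. Psme1 had 168 CPM (136 to 204) in the meninges and 32.9 (25.6 to 41.7) in Irx2/Cdh23, the lowest value; the next lowest, Cplx3/Thbs4, had 55.3 (33.8 to 85.3), an interval that overlaps it. Psme2 had 8.64 (2.80 to 20.2) in the meninges, on 5 UMIs, and 36.7 (29.0 to 45.9) in Irx2/Cdh23, which was the second highest after Ttr/Slc6a3 with 52.8 (27.3 to 92.2). The ratio of Psme2 to Psme1 UMIs was 1.12 in Irx2/Cdh23 against 0.22 elsewhere, a log2 odds ratio of 2.34 (1.82 to 2.85). In the meninges it was -2.38 (-4.04 to -1.09) and in the dentate gyrus -2.02 (-2.97 to -1.19). In the dentate gyrus Psme1 was higher than in the cortex (106 against 65.1; 0.70, 0.44 to 0.96), while Psme2 was lower (7.26 against 20.2; -1.47, -2.43 to -0.64), as was Psmb10 (43.6 against 71.1; -0.71, -1.08 to -0.35).

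In the meninges Psme1 had a log2 ratio to cortex of 1.36 (1.03 to 1.69) and Psme2 one of -1.22 (-2.87 to 0.04). Psme2b, a retrocopy close to Psme2 in sequence, had 117 UMIs in all, of which 10 lay in the meninges, at 17.3 CPM (8.29 to 31.8). Molecules of Psme2 and Psme2b may be shared out between the 2 by the probes, so that the level of Psme2 alone is uncertain. Against Psme3, which is not of the interferon-inducible pair, Psme1 in Irx2/Cdh23 had a log2 odds ratio of -1.499 (-1.93 to -1.08) and Psme2 one of 0.84 (0.40 to 1.26).

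**Figure D5:**
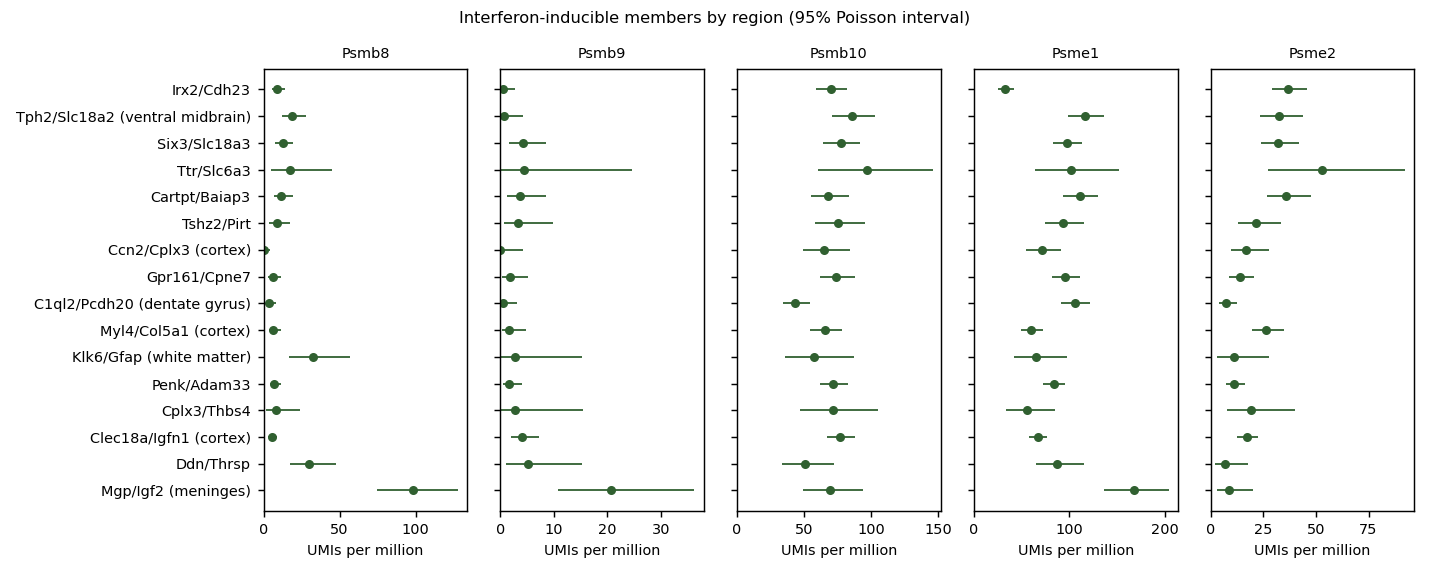
CPM (x axis, own scale in each panel, 95% Poisson intervals) of Psmb8, Psmb9, Psmb10, Psme1 and Psme2 in the 16 regions (y axis). Psmb8, Psmb9 and Psme1 are highest in the Mgp/Igf2 meninges; Psmb10 is nearly level; Psme1 is lowest and Psme2 high in Irx2/Cdh23.

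Of these genes, 2 pairs lie close together. On mouse chromosome 17 (RefSeq genes of GRCm38.p6), Psmb9 runs from 34182030 to 34187330 and Psmb8 from 34198195 to 34201454, with the transporter gene Tap1 between them from 34187556 to 34197225. The start sites of Psmb9 and Tap1 lie 226 bases apart on opposite strands. Tap1 had 5 UMIs in the meninges, at 8.64 CPM, where Psmb9 had 12. Psme1 (55578494 to 55581527) and Psme2 (55587440 to 55591101) lie on chromosome 14, 5912 bases apart, and Psmb10 lies on chromosome 8 (105935728 to 105938392).

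The 100 bases before the start site are printed 5′ to 3′ for the pair that was high in the meninges and for the activator pair whose levels parted, because these are the sequences next to which the inducible members differ. Capitals mark matches to 5 motifs searched on both strands. Psmb8 is chr17:34198095-34198194 on the plus strand, Psmb9 chr17:34187331-34187430 on the minus strand, Psme1 chr14:55578394-55578493 on the plus strand and Psme2 chr14:55591102-55591201 on the minus strand, all from RefSeq with GRCm38.p6.
Psmb8: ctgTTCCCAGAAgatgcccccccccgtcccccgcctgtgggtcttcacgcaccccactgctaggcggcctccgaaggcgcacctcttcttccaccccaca
Psmb9: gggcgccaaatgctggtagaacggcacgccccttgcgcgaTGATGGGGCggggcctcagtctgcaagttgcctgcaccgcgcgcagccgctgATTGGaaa
Psme1: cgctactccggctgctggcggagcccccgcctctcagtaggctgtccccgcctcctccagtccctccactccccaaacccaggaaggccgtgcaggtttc
Psme2: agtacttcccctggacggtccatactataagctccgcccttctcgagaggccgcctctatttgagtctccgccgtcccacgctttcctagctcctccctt
In Psmb8 the capitals are a gamma-activated site (TTCNNNGAA, with N any base), the motif of STAT factors. In Psmb9 they are TGANNNNGC, the core of the element bound by Nfe2l1 and Nfe2l2, and a CCAAT box on the other strand. The marked matches do not overlap.

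Over windows from 250 bases before to 50 after the start, 37 of the 43 members had 40 windows among 32851 of all genes. TGANNNNGC was in 60.0% of the members' windows and in 41.3% of all. The nuclear respiratory factor motif (GCGCA, any base, GCGC) was in 6 of 40 windows against 4.603% of all, in Psma2, Psma3, Psma4, Psmc4, Psmc5 and Psmd14. The interferon-stimulated response element (GAAA, any 2 bases, GAAA) was in 4 of 40 against 3.44%, in Psmb3, Psmd4, Psmd9 and Psme1. In Psme1 it begins 10 bases into the transcript and reads TTTCGCTTTC on the gene's strand. TTCNNNGAA was in 2 of 40 against 8.30%, in Psmb8 and Psmd2, and CCAAT in 37.5% against 37.4%. A match describes the letters only and says nothing of binding in this tissue.

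Genes that work beside the proteasome were counted by list in the same comparisons, with 2-fold as the mark; all of these share the cortex spots. In the ventral midbrain, Uchl5, a deubiquitinase of the regulatory particle, had a log2 ratio of 1.34 (0.98 to 1.68) and Nfe2l2, a stress-responsive activator of proteasome genes, 1.62 (1.03 to 2.20). They were the 1 of 7 cofactors and the 1 of 3 transcriptional regulators past 2-fold higher there, on a background of 7.88% of all genes. Past 2-fold lower were 9.88% of all genes, and no gene of these lists was. Nfe2l2 had 61 UMIs in the cortex, and reached the minimum of 100 only with those of the ventral midbrain, where it was high. Its place in the count thus rests in part on that height. None of 5 core assembly chaperones, 9 shuttles and 3 ubiquitin and E1 genes was past 2-fold higher. In the meninges Nfe2l2 was at 3.20 (2.66 to 3.74), the cofactor Txnl1 at 1.07 and the shuttle Rad23b at -1.04. Of all genes, 11.2% were past 2-fold higher there and 20.2% lower. Nfe2l2 again passed the minimum only with its 59 meningeal UMIs.

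In the dentate gyrus Ngly1, which takes part in the activation of Nfe2l1, was at 1.21 (0.63 to 1.77). It was the 1 of 3 transcriptional regulators past 2-fold higher, and no gene of the other 4 lists was. With 64 UMIs in the cortex, Ngly1 reached the minimum only with those of the dentate gyrus, where it was high. Of all genes, 6.34% were past 2-fold higher and 13.3% lower. In the white matter the core chaperone Psmg2 was at 1.10 (0.30 to 1.82), past 2-fold higher as 10.1% of all genes were. The cofactors Ecpas (-1.44), Usp14 (-1.09) and Ube3c (-1.01) and the ubiquilin shuttles Ubqln4 (-1.45) and Ubqln2 (-1.20) were past 2-fold lower, among 23.2% of all genes. Usp14 trims ubiquitin chains at the proteasome, and Ube3c extends them.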

How the data were processed

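The deposited UMI counts per gene and spot, whole numbers without normalization, were made by the authors with Space Ranger and mm10, per the submitters' processing notes; the software version is 3.1.1 per the file headers. No source used here states the counting settings. The 2 matrices were identical, with 2722 of 2722 barcodes shared, and were used once; the wild-type position list was taken because all 2487 spots that it marks as tissue had counts, while 751 of 2969 in the other list had none. This assigns no genotype. Spots under 500 UMIs (2) were left out. Spots were clustered with scanpy 1.11.5 (2000 variable genes, 30 principal components, 15 neighbours, Leiden resolution 1). The dentate gyrus name went to the C1ql2/Pcdh20 region alone, a choice made after the clusters were seen.

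Counts were summed by region and divided by the region's total (CPM). Intervals are exact Poisson for levels and exact conditional (Clopper-Pearson) for ratios, at 95%, with scipy 1.17.1; the ratio script was tested on simulated data. A comparison used genes with at least 100 UMIs in both regions together, and a count of 0 was set to 3. Members past 1.5-fold were named in each comparison, up to 12 each way, with Psmb5 to Psmb10 and Psme1 to Psme4 always, and pathway genes past 2-fold, up to 4 per list. TMM factors came from edgeR 4.0.16. The members, lists and regions were chosen with earlier results of these data known. Promoters came from RefSeq (GRCm38.p6).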

Additional observations from a re-analysis of the deposited data

Results flagged for a closer look

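Barcodes outside the marked tissue were not used in any comparison, and they held proteasome UMIs. The 235 barcodes held 697435 UMIs, of which 1770 were of constitutive members, or 2538 CPM (2421 to 2659).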

How the results depend on the processing

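No paired analysis was possible because each group has 1 sample and both share 1 matrix. By UMIs per spot in place of shares, the constitutive median log2 ratio to cortex was 1.65 in the dentate gyrus, -0.85 in the ventral midbrain and -1.88 in the white matter, in the order of total UMIs per spot. On that scale Psmb10 (0.77) and Psme2 (0.0056) changed sign in the dentate gyrus, Psma4 (-0.62) and Psma2 (-1.32) in the white matter, and Psmd1 (-0.70), Psmd5 (-0.68), Psmb6 (-0.38), Psmc5 (-0.62), Psmd12 (-0.29), Psmc1 (-0.22), Psma2 (-0.22), Psme1 (-0.46) and Psme2 (-0.60) in the ventral midbrain. In the lower array columns, with 52 cortical spots, the medians were -0.14 in the dentate gyrus, 0.17 in the ventral midbrain and -0.32 in the white matter. TMM scaling gave 0.33 and Leiden resolution 0.6 gave 0.50 for the ventral midbrain, and equal weight for each spot gave 0.22 for the dentate gyrus. With spots of 3000 to 15000 UMIs, which kept 13 dentate gyrus spots, that median was 0.39, the immunoproteasome log2 odds ratio of the dentate gyrus was 0.064 and that of Psme2 to Psme1 in Irx2/Cdh23 was 1.73. The median correlation of members was 0.52 with a minimum of 2000 UMIs. The meningeal immunoproteasome ratio stayed within its interval under every alternative run, from 1.15 to 1.62. The totals without blood genes and the pooling of the dentate gyrus with Ddn/Thrsp were chosen after seeing the data, as was the Psme2 to Psme1 ratio. Of the alternative values of single members, 197 stayed within the interval, 10 moved beyond it and 13 changed sign, all 13 by UMIs per spot, a scaling that shifts every gene of a region by the same amount. The higher array columns held too few spots (0 to 7) of the dentate gyrus, white matter, ventral midbrain and Irx2/Cdh23 regions to give values. The causes were not tested. Totals without mitochondrial genes were not run, since the panel has 0 of them.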
